A study of Mus musculus with 30 samples.

Results

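The genes described here make, carry, sense and remove retinoic acid. They are Stra6, Dhrs3, Aldh1a2, Crabp1, Crabp2, Rarg, Rarb and Cyp26a1, taken by name from the RNA-seq table, in which all 8 were found among 22477 genes. The measurements come from mouse secondary iPSCs, pluripotent cells that in every condition carry doxycycline (dox)-inducible Oct4, Sox2, Klf4 and c-Myc (OSKM) transgenes, a GFP reporter at the Nanog gene and a nuclear RFP. The time course sampled polyadenylated RNA at 0, 24, 36, 48, 60, 72 and 96 h after withdrawal of 2i/LIF, the inhibitors and cytokine that hold cells in naive pluripotency, in N2B27 medium. In the other experiment, cells differentiated for 0, 24, 48 or 96 h were re-seeded and grown for 48 h in serum/LIF, with dox at 2 µg/ml to induce OSKM (+dox) or in its absence (–dox). The 7 timepoints and 8 re-seeded conditions have 2 replicates each, 30 samples in all. The table holds 1 FPKM value per gene and condition (fragments mapped to a gene, scaled to transcript length and library size), in which both replicates are combined, so no value below carries a spread or a test. The cells were kept on mouse embryonic fibroblast feeders in serum/LIF before 2i/LIF and were seeded on gelatin for withdrawal, while the surface used for re-seeding is described for the colony assay and not for RNA-seq. The methods name no added retinoic acid, and do not say whether the N2B27 medium or the serum held vitamin A or its derivatives.

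Cells take up retinol, a form of vitamin A, through membrane proteins such as STRA6, and oxidise it to retinaldehyde and then, by retinaldehyde dehydrogenases such as ALDH1A2, to retinoic acid. DHRS3 works in the opposite direction and reduces retinaldehyde back to retinol. Inside the cell retinoic acid is carried by CRABP1 and CRABP2, binds nuclear receptors that include RARG and RARB and act as dimers with the RXR proteins, and is inactivated by the hydroxylase CYP26A1. In pluripotent and embryonic cells retinoic acid is known as a differentiation signal. Cyp26a1, Rarb, Dhrs3, Crabp2 and Stra6 are among its known target genes, so their transcripts are widely used as readouts of the signal.

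The sequences that connect these genes to their signal are retinoic acid response elements. They are repeats of a hexamer, searched here as AGGTCA, its variant AGTTCA, the variant GGGTCA or the variant GGTTCA followed by any of the same 4 hexamers in the same direction after a gap of 1, 2 or 5 bases, on both strands. RefSeq promoters (build GRCm38.p6, 250 bases before to 50 bases after a start site) were found for 7 of the 8 genes, all but Crabp2, with 13 start sites. A match was present in the promoters of Cyp26a1 and Rarb and in none of the other 11. Over all RefSeq promoters of this length 193 of 32851 held a match, or 0.588%, and 32 held a match with the gap of 5 bases that both genes have. The promoters of these 2 genes are shown because they are the members with a match, and because their transcripts ranked the 96 h conditions in different orders. Each sequence is given 5′ to 3′ on the gene's own strand and ends at the base before the start site, and capitals mark the match. The Cyp26a1 window is chr19:37697558-37697807 on the plus strand, with the match from 32 to 16 bases before the start and in reverse orientation. The Rarb window is chr14:16575477-16575726 on the minus strand, with the match from 53 to 37 bases before the start. The search describes letters and measures no binding.
Cyp26a1: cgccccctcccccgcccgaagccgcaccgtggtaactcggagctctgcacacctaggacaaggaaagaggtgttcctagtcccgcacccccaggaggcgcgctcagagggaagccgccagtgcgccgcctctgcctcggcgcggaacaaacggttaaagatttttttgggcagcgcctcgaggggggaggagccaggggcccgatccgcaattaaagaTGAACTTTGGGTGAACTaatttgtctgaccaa
Rarb: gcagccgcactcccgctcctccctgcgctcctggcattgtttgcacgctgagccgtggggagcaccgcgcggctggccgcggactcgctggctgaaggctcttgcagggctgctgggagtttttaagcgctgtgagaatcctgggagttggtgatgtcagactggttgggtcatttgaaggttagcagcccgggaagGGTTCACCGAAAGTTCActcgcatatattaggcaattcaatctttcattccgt

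The sum of FPKM ran from 603278 to 832607 over the conditions, with 2756 to 5090 genes at 0. The smallest values above 0, read from 939 genes with 1 transcript of 2 to 3 kb and set to a length of 2 kb, lay between 0.0103 and 0.0351 FPKM (5th percentile). Member values under about 0.1 FPKM therefore stand within a few such steps, and no ratio to them is given. The 12 pluripotency markers summed to 1721 FPKM at 0 h but 97.5 by 96 h. The 20 fibroblast markers, the cell type of the feeders, summed to 1296 FPKM at 0 h with 20 of 20 at 1 FPKM or more, and to between 110 and 553 FPKM in the other 14 conditions. In 0 h –dox 10 of the 20 reached 1 FPKM, and Lum and Twist2 were listed at 0. Endogenous and transgene RNA of Pou5f1 (Oct4) cannot be told apart here. Pou5f1 was higher in +dox than in –dox cells at each of the 4 times, with 204 against 72.6 FPKM at 48 h. At 96 h it stood at 9.95 against 2.63 FPKM, both under the 25.5 FPKM of the 96 h timepoint. Sox2 was lower in +dox than in –dox cells at 0 h (122 against 224 FPKM) and higher at the later times. Klf4 was also lower at 0 h (66.7 against 84.8 FPKM). It was higher at 24 and 48 h and nearly level at 96 h (11.6 against 11.4 FPKM).

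A change between conditions was a ratio of 2-fold or more with at least 1 FPKM in the upper value, and shares over all genes are of those with that upper value. Crabp2 and Rarg counted as higher than at 0 h at all 6 later timepoints, and Aldh1a2 as lower at all 6. At 24 h these 3 were the members counted, of 5 that reached 1 FPKM, where 8.64% of all genes were counted as higher and 14.3% as lower. The same 3 were counted at 36 h (all genes, 11.3% higher and 16.8% lower), and Stra6 was added to the higher ones at 48 h (12.1% and 17%). At 60 h Cyp26a1 and Dhrs3 joined them, so that 5 of 7 members were higher and 1 lower, against 13% and 16.1% of all genes. At 72 h the 5 were again higher, while Crabp1 and Aldh1a2 were lower (15% and 15.9%). At 96 h 5 members were higher and Aldh1a2 alone was lower (16.8% and 16.4%). The receptor gene Rarb did not reach 1 FPKM at any timepoint. Across any pair of timepoints, 7 of the 7 members that reached 1 FPKM were counted as changed, as were 60.7% of all genes.

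**Figure D1:**
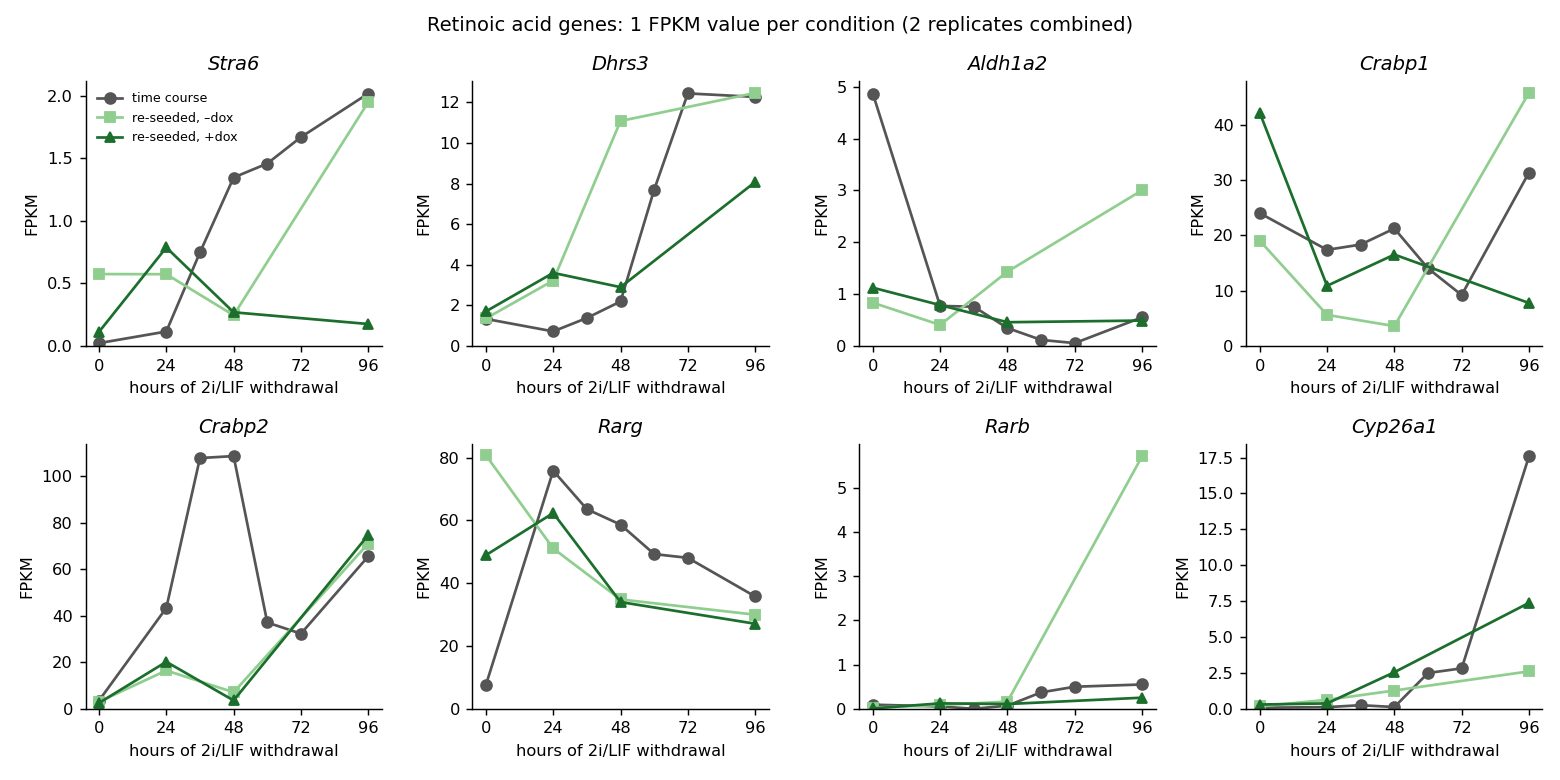
Level of each of the 8 genes in FPKM (y axes, each to its own scale) against hours of 2i/LIF withdrawal (x axes), for the time course (grey circles) and for cells re-seeded for 48 h in serum/LIF after that many hours, –dox (light squares) or +dox (dark triangles). Each point is 1 combined value of 2 replicates. Crabp2 had its highest value at 48 h (109 FPKM), Cyp26a1 at 96 h (17.6 FPKM), and Rarb stood above 1 FPKM only in 96 h –dox (5.71 FPKM).

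Stra6, the gene of the retinol transporter, lies on chromosome 9 (58063788 to 58153996, plus strand). Its values over the 7 timepoints were 0.0235, 0.116, 0.748, 1.35, 1.46, 1.67 and 2.02 FPKM. Each timepoint was thus higher than the one before it, although all values were low. In –dox cells it was at 0.575, 0.574, 0.246 and 1.95 FPKM after 0, 24, 48 and 96 h, and in +dox cells at 0.113, 0.787, 0.270 and 0.176 FPKM. The 96 h conditions stood apart, since the –dox value was close to that of the 96 h timepoint and the +dox value was 11.1-fold lower. Stra6 overlaps Ccdc33 on the other strand, and whether counting used the strand is not stated. Ccdc33 stayed under 1 FPKM in all 15 conditions, but was above Stra6 at 36 h (0.962 FPKM) and in 0 h +dox (0.229 FPKM). Stra6 also overlaps Gm16131 on its own strand, whose level is not given here.

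Dhrs3, the gene of the retinaldehyde reductase, lies on chromosome 4 (144892827 to 144928209, plus strand). It was at 1.34, 0.723, 1.38 and 2.2 FPKM at 0, 24, 36 and 48 h, and then at 7.70, 12.4 and 12.3 FPKM at 60, 72 and 96 h. The level thus went up between 48 and 72 h, to 9.29-fold over 0 h, and was the same at 72 and 96 h to within 2%. The –dox cells of 0, 24, 48 and 96 h held 1.36, 3.23, 11.1 and 12.5 FPKM, and the +dox cells 1.71, 3.60, 2.90 and 8.08 FPKM. Re-seeded –dox cells from 48 h therefore held 5.05-fold more Dhrs3 RNA than the cells they were seeded from, and 3.82-fold more than their +dox counterparts. After 96 h the +dox value was lower by less than 2-fold (log2 ratio -0.63).

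Aldh1a2, the gene of the retinaldehyde dehydrogenase that makes retinoic acid in much of the early embryo, lies on chromosome 9 (71215789 to 71296243, plus strand). It had its highest value at 0 h, with 4.87 FPKM, and was at 0.774, 0.760, 0.348, 0.119, 0.0574 and 0.555 FPKM at the 6 later timepoints. In –dox cells it was at 0.837, 0.408, 1.43 and 3.0 FPKM after 0, 24, 48 and 96 h, and in +dox cells at 1.13, 0.791, 0.460 and 0.492 FPKM. Apart from 0 h, the –dox cells from 48 and 96 h and the +dox cells from 0 h were the conditions above 1 FPKM. The level moved with that of the fibroblast markers, which had their 2 highest sums in the same 2 conditions as Aldh1a2, 0 h (1296 FPKM) and 96 h –dox (553 FPKM). Over the 15 conditions Spearman's rho between Aldh1a2 and the marker sum was 0.782, and it was 0.732 without 0 h. Acta2 and Fn1, which other cell types also express, weighed heavily in that sum outside 0 h. Fn1 was 188 of the 234 FPKM in 0 h –dox and 239 of the 298 FPKM in 0 h +dox. How far rho rests on these genes was not tested. In 96 h –dox Acta2 (255 FPKM) and Fn1 (104 FPKM) made up most of the marker sum. Col1a1 and Col1a2 stood at 33.2 and 86.0 FPKM there. Dcn and Lum were at 0.791 and 0.0605 FPKM there, against 71.0 and 14.8 FPKM at 0 h. Values of a condition share its libraries and depth, and the part of feeder cells in the Aldh1a2 values was not tested. In such mixed RNA fewer cells of a type and less RNA per cell cannot be told apart.

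**Figure D2:**
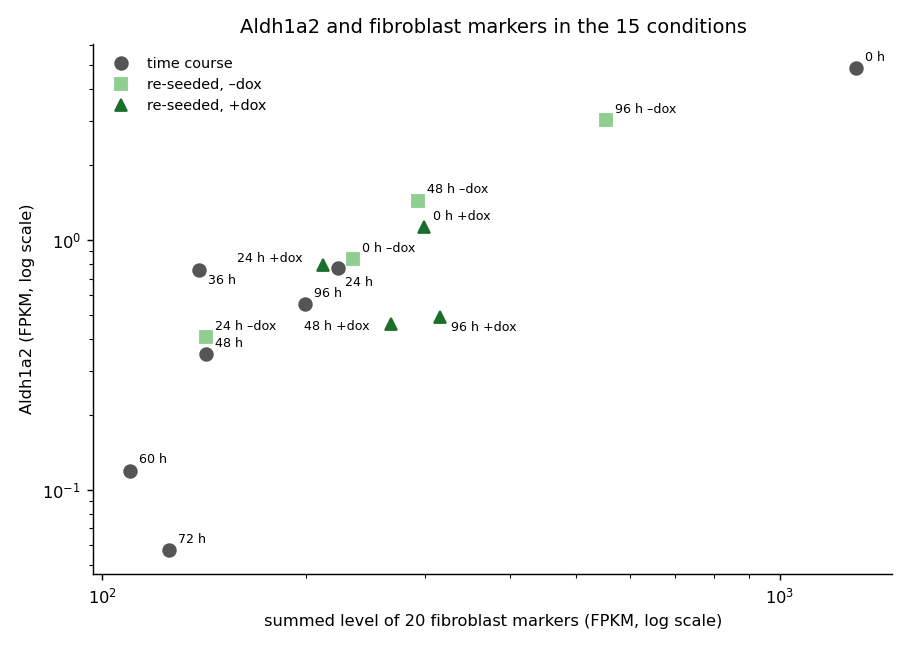
Aldh1a2 level (y axis, FPKM, log scale) against the summed level of 20 fibroblast markers (x axis, FPKM, log scale), with 1 point per condition and the time course, –dox and +dox conditions in different symbols. The 0 h timepoint and 96 h –dox stand at the upper right on both axes, at 4.87 and 3.0 FPKM of Aldh1a2.

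Crabp1 and Crabp2 encode the cytoplasmic retinoic acid binding proteins, of which CRABP2 is known to pass retinoic acid to its receptors. Crabp1, on chromosome 9 (54764748 to 54773110, plus strand), was at 24.0, 17.4, 18.3, 21.2, 14.04, 9.22 and 31.3 FPKM over the 7 timepoints. It counted as changed against 0 h at 72 h, where it was 2.60-fold lower, and was 3.40-fold higher at 96 h than at 72 h. Re-seeded –dox cells held 19.0, 5.64, 3.61 and 45.8 FPKM after 0, 24, 48 and 96 h. In +dox cells it was at 42.2, 10.9, 16.5 and 7.79 FPKM. The lowest –dox value was thus the one from 48 h and the highest the one from 96 h, while among +dox cells the highest was from 0 h and the lowest from 96 h.

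Crabp2, on chromosome 3 (87948666 to 87953376, plus strand), was at 3.51, 43.3, 107.7, 109, 37.1, 32.3 and 65.5 FPKM over the 7 timepoints. Its value was therefore 12.3-fold higher after 24 h and 30.9-fold higher after 48 h than at 0 h, and 2.93-fold lower at 60 h than at 48 h. Without dox, re-seeded cells held 3.0, 16.5, 7.10 and 71.0 FPKM, and +dox cells 2.49, 20.2, 3.58 and 74.7 FPKM after 0, 24, 48 and 96 h. Re-seeding of 48 h cells thus went with 15.3-fold less Crabp2 RNA in –dox cells than in the cells they came from, and that of 96 h cells with 1.08-fold more. By level per length, Crabp1 was 6.84-fold over Crabp2 at 0 h, and Crabp2 was between 2.09-fold and 5.87-fold over Crabp1 at every later timepoint. Crabp1 was again the higher of the pair in 0 h –dox (6.36-fold), 0 h +dox (17.0-fold) and 48 h +dox (4.62-fold), whereas in 48 h –dox Crabp2 was 1.97-fold over Crabp1.

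Rarg and Rarb encode the receptors that retinoic acid activates. Rarg, on chromosome 15 (102234938 to 102257517, minus strand), was at 7.57 FPKM before withdrawal, at 75.8 by 24 h, and at 63.6, 58.6, 49.3, 48.1 and 35.8 from 36 to 96 h. The value was 10.0-fold higher at 24 h than at 0 h, and each later timepoint was lower than the one before. After re-seeding, –dox cells held 80.7, 51.1, 34.8 and 30.0 FPKM and +dox cells 48.9, 62.3, 34.0 and 27.1 FPKM after 0, 24, 48 and 96 h. The 0 h timepoint in 2i/LIF stood apart as the lowest of the 15 conditions, and the same cells re-seeded in serum/LIF without dox held the highest value, 10.7-fold above it. Medium, time and possibly feeders differ together in that comparison and cannot be told apart. Between +dox and –dox cells Rarg differed by less than 2-fold at each of the 4 times (log2 ratios -0.72, 0.29, -0.04 and -0.15).

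Rarb, on chromosome 14 (16430839 to 16819156, minus strand), was at 0.0931, 0.0530, 0, 0.0702, 0.371, 0.499 and 0.550 FPKM over the 7 timepoints. It was at 0.0267, 0.0835, 0.162 and 5.71 FPKM in –dox cells and at 0.00770, 0.123, 0.108 and 0.251 FPKM in +dox cells after 0, 24, 48 and 96 h. One condition, 96 h –dox, thus stood above the rest, 10.4-fold over the 96 h timepoint and 22.8-fold over 96 h +dox. Rarb overlaps Top2b on the other strand, but Top2b was at 26.2, 30.1 and 26.6 FPKM in the 96 h timepoint, 96 h –dox and 96 h +dox, a far smaller difference than that of Rarb.

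Of the remaining receptor genes, Rara was at 12.7 FPKM at 0 h, so that it made up 62.4% of the summed Rara, Rarb and Rarg level there and Rarg 37.2%. At the 6 later timepoints Rarg made up between 78.1% and 86.7%. Rarb made up 13.1% in 96 h –dox and at most 1.20% elsewhere. Rara had its highest value, 24.3 FPKM, in 0 h –dox, the condition in which Rarg was also highest. The partner genes Rxra, at 5.17 to 20.2 FPKM, and Rxrb, at 14.5 to 32.1 FPKM, were present in every condition. Of the 3 tested genes among Rara, Rxra, Rxrb and Rxrg, 0 were counted as changed between 96 and 0 h, where 16.8% of all genes were higher and 16.4% lower.

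**Figure D3:**
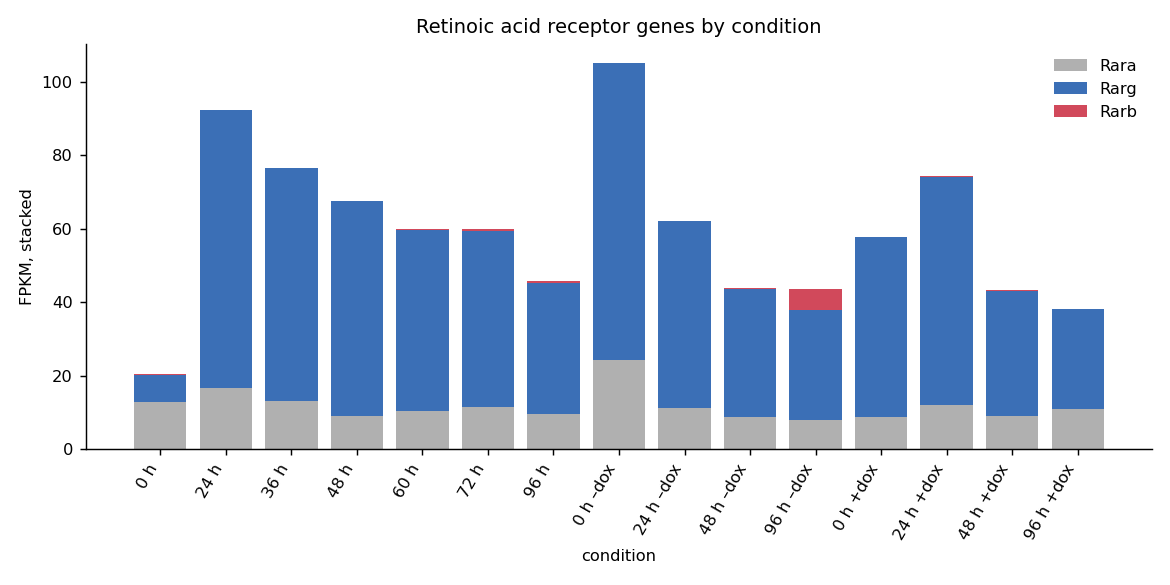
Level per length (y axis, FPKM, stacked) of the receptor genes Rara, Rarg and Rarb in each of the 15 conditions (x axis). The stack is lowest at 0 h (20.4 FPKM) and highest in 0 h –dox (105.1 FPKM), and a visible share of Rarb (13.1%) is present in 96 h –dox.

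Cyp26a1, the gene of the retinoic acid hydroxylase and a widely used readout of the signal, lies on chromosome 19 (37697798 to 37701536, plus strand). It was at 0.0757, 0.114, 0.251 and 0.121 FPKM at 0, 24, 36 and 48 h, and at 2.49, 2.82 and 17.6 FPKM at 60, 72 and 96 h. It was thus under 0.3 FPKM up to 48 h and 6.24-fold higher at 96 h than at 72 h. Re-seeded –dox cells held 0.169, 0.625, 1.27 and 2.61 FPKM, and +dox cells 0.296, 0.374, 2.55 and 7.38 FPKM after 0, 24, 48 and 96 h. Both sets were highest after 96 h. The order of the 96 h conditions for Cyp26a1 was the timepoint, then +dox, then –dox, and for Rarb it was –dox, then the timepoint, then +dox, although both promoters hold the element shown above.

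To describe how these genes differed with dox, +dox cells were set beside –dox cells of the same hours of differentiation. After 0 h Crabp1 was counted as higher in +dox cells (2.21-fold) and 0 members as lower, where 3.62% of all genes were higher and 5.61% lower. Scaling to equal sums of FPKM ended that call, with a log2 ratio of 0.92. After 24 h 0 of 4 tested members were counted in either direction (all genes, 2.87% and 3.4%), and Crabp1 stood just under the threshold at 1.93-fold higher. After 48 h Crabp1 (4.58-fold) and Cyp26a1 were higher and Dhrs3 and Aldh1a2 lower, of 6 tested (6.56% and 6.46%). Cyp26a1 then stood on the threshold, at 2.002-fold, and Crabp2 just outside it, at 1.99-fold lower. After 96 h Cyp26a1 was 2.83-fold higher and Crabp1 (5.88-fold), Rarb (22.8-fold), Stra6 (11.1-fold) and Aldh1a2 (6.10-fold) were lower, of 8 tested, against 6.67% and 11.1% of all genes. Crabp2, Rarg and Dhrs3 differed by less than 2-fold after 96 h. The fibroblast markers also differed at that time, with a sum of 553 FPKM in –dox against 315 in +dox cells, as did the 10 neurectoderm markers (90.6 and 41.1 FPKM) and the 10 mesoderm markers (40.5 and 2.80 FPKM). Acta2 (255 and 193 FPKM) and Fn1 (104 and 65.4 FPKM), which other cell types also express, made up most of both fibroblast sums, and Dcn and S100a4 were lower in –dox than in +dox cells. Tubb3 (31.7 and 7.38 FPKM) and Sox11 (26.6 and 17.1 FPKM) made up most of both neurectoderm sums. Of the 10 neurectoderm markers, 6 were counted as lower in +dox cells and Pax6 (2.23 and 4.63 FPKM) as higher. Sox1 was at 0.893 and 1.10 FPKM. Of the mesoderm markers, Mesp1 was at 0 in both and T at 0.185 and 0 FPKM, and Hand1 made up 38.2 of the 40.5 FPKM. Their part in the differences of the 8 genes was not tested.

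**Figure D4:**
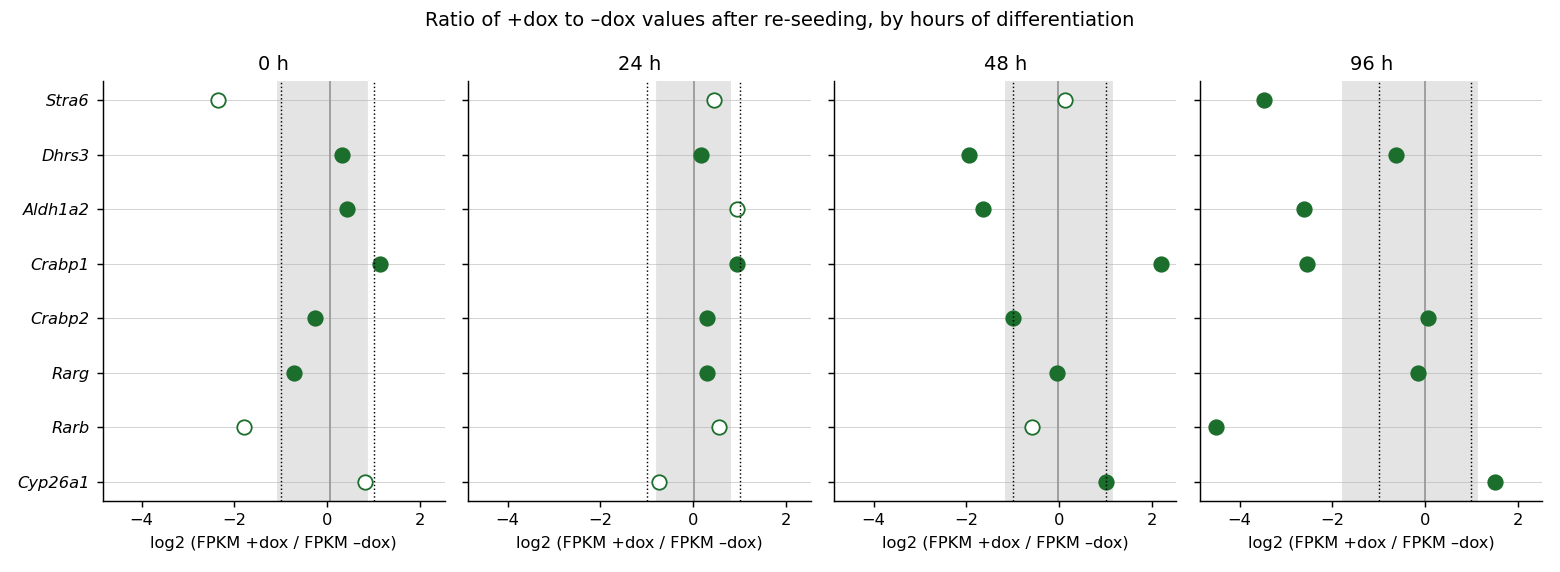
Log2 ratio of the +dox to the –dox value (x axes) of each gene (y axis) in cells re-seeded after 0, 24, 48 or 96 h. Filled points reach 1 FPKM in the higher value and open points do not, dotted lines mark 2-fold, the grey band holds the 5th to 95th percentile of all genes and the grey line their median. Crabp1 lies at 1.15 after 0 h, 2.19 after 48 h and -2.56 after 96 h, and Rarb at -4.51 after 96 h.

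Against the cells they were seeded from, –dox cells from 0 h were counted as higher in Rarg and lower in Aldh1a2, of 5 tested (all genes, 12% higher and 10.1% lower). Those from 24 h were higher in Dhrs3 (4.46-fold) and lower in Crabp1 (3.08-fold) and Crabp2 (2.63-fold), of 4 tested (14.9% and 10.6%). Those from 48 h were higher in Cyp26a1 (10.51-fold), Dhrs3 and Aldh1a2 (4.12-fold) and lower in Crabp1 (5.88-fold), Crabp2 and Stra6 (5.46-fold), of 7 tested (15.3% and 11.5%). Those from 96 h were higher in Rarb and Aldh1a2 (5.42-fold) and lower in Cyp26a1 (6.75-fold), of 8 tested (12.4% and 11.2%). Dhrs3, Stra6, Crabp1, Crabp2 and Rarg were then within 2-fold of the 96 h timepoint.

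Among the –dox conditions, the 24 h cells were higher than the 0 h cells in Crabp2 and Dhrs3 and lower in Crabp1, of 4 tested (all genes, 8.72% higher and 11.4% lower). The 48 h cells were higher in Cyp26a1, Crabp2 and Dhrs3 and lower in Crabp1 and Rarg, of 6 tested (15.1% and 17.4%). The 96 h cells were higher in 7 of 8 members and lower in Rarg, by 2.69-fold, where 21.5% of all genes were higher and 21.7% lower. Of these, Crabp2 was 23.7-fold, Cyp26a1 15.5-fold, Dhrs3 9.16-fold, Aldh1a2 3.59-fold, Stra6 3.39-fold and Crabp1 2.40-fold higher. These comparisons share the 0 h –dox value.

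The other genes that handle retinol gave a mixed picture. Of the 3 tested genes of retinol uptake, binding and storage, Rbp4 was higher at 96 h than at 0 h and 0 were lower (all genes, 16.8% and 16.4%), while Dgat1, which encodes an acyltransferase that can store retinol as esters, ran from 11.6 to 22.1 FPKM over the 15 conditions. Of 10 tested retinol and retinaldehyde oxidoreductases, Rdh10 was higher and Adh1 lower (all genes, 16.8% and 16.4%), and the list's median log2 ratio was 0.26 against -0.02 over all genes. Rdh10, which encodes the main retinol dehydrogenase of the embryo, was at 1.56 FPKM at 0 h against 4.97 at 96 h. In –dox cells it was at 0.876, 2.48, 27.4 and 17.9 FPKM after 0, 24, 48 and 96 h, and in +dox cells at 0.965, 2.26, 4.03 and 8.82 FPKM. Rdh10 and Dhrs3 were thus each at least 2-fold lower in +dox than in –dox cells after 48 h. Rdh11 had its highest value, 26.7 FPKM, at 48 h and Dhrs7 its highest, 12.1 FPKM, in 0 h –dox, while Dhrs4 ran from 4.03 to 12.1 FPKM.

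Aldh1a3 was the one of 4 other retinaldehyde dehydrogenase genes to reach 1 FPKM. It was at 6.84, 13.8, 14, 11.6, 8.71, 2.64 and 1.61 FPKM over the timepoints and between 1.49 and 4.42 FPKM after re-seeding. Aldh1a3 was thus above Aldh1a2 at all 7 timepoints by level per length, and below it in 96 h –dox (2.18 against 3.0 FPKM). Of the other hydroxylase genes, Cyp26b1 and Cyp26c1 did not reach 1 FPKM in any condition, so that Cyp26a1 was the one member of its family that did. They came close in 96 h conditions, with Cyp26c1 at 0.941 FPKM at the 96 h timepoint and Cyp26b1 at 0.919 FPKM in 96 h –dox. Fabp5, whose product carries retinoic acid to another class of nuclear receptors, had its highest value at 48 h (63.2 FPKM) and its lowest in 0 h –dox (6.59 FPKM). Of 12 tested receptor coregulators, 0 were higher and Ncoa3 was lower at 96 h than at 0 h (all genes, 16.8% and 16.4%), with a median log2 ratio of -0.0025 against -0.02 over all genes. Nrip1, a corepressor and itself a known target of retinoic acid, was at 4.02 FPKM at 96 h, 28.6 in 96 h –dox and 6.78 in 96 h +dox.

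Other known response genes of retinoic acid were mostly lower at 48 h than at 0 h and were mixed at 96 h. At 48 h, of 10 tested, 1 (Skil) was higher than at 0 h and 7 were lower (all genes, 12.1% and 17%), with a median log2 ratio of -2.67 against -0.02 over all genes. At 96 h, of 14 tested, Meis1, Stra8, Nr2f1 and Nr2f2 were higher and Cdx1, Tgm2, Bhlhe40, Rai14 and Gbx2 lower (all genes, 16.8% and 16.4%), with a median log2 ratio of 0.07. Some were higher at 96 h than at 72 h, among them Meis2 (5.93 and 13.7 FPKM at 72 and 96 h) and Zfp703 (0.442 and 2.58 FPKM). At 0 h these had been at 16.6 and 1.95 FPKM. Others were lower at 96 h than at 72 h, among them Skil (43.4 and 18.8 FPKM) and Rai14 (27.3 and 15.4 FPKM). Bhlhe40 (16.6 and 7.63 FPKM) and Gbx2 (12.6 and 5.50 FPKM) were lower too. No share over all genes was computed for 96 h against 72 h. Nr2f2, which encodes an orphan nuclear receptor, was at 0.550 FPKM before withdrawal, between 0.0284 and 0.373 from 24 to 72 h and at 4.51 by 96 h. Hoxb1, Hoxa2, Hoxa3, Hoxb4, Hoxa5 and Hoxb5 stayed under 1 FPKM in all conditions. The early timepoints of the response genes also stand against a 0 h value taken where the fibroblast markers were highest, and the part of those cells was not tested. At 24 h Cdx1, Tshz1, Stra8, Tgm2, Bhlhe40 and Zfp703 were counted as lower than at 0 h (all genes, 14.3%). Gbx2 and Skil were counted as higher (all genes, 8.64%), and Meis2 was at 13.5 FPKM.

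In 96 h –dox, where Rarb had its highest value, 9 of 15 tested response genes were higher than at the 96 h timepoint and 1 was lower (all genes, 12.4% and 11.2%), with a median log2 ratio of 1.83 against 0.01 over all genes. Of 19 tested fibroblast markers, 12 were higher and 2 lower in that comparison, with a median log2 ratio of 1.47, and Cyp26a1 was 6.75-fold lower. Medium, time and possibly feeders differ together in it and cannot be told apart. Nr2f2 was at 27.0 FPKM in 96 h –dox, Tgm2, which encodes a transglutaminase, at 35.5 FPKM and the homeobox gene Meis1 at 11.7 FPKM. Of the 15 response genes, 9 had their highest value of all 15 conditions in 96 h –dox, as did 17.3% of all genes that reached 1 FPKM and the members Rarb, Crabp1 and Dhrs3. With dox, of 15 tested, Rai14 was higher and Cdx1, Stra8, Nr2f1, Zfp703 and Zfp503 were lower after 96 h (all genes, 6.67% and 11.1%). Nr2f2 and Tgm2 remained at 15.7 and 26.6 FPKM in 96 h +dox, within 2-fold of –dox. Stra8 differed from these, with its highest value, 15.3 FPKM, in 0 h –dox. Nr2f1 is also among the neurectoderm markers and Gata6 among the extraembryonic endoderm markers, whose sums were both highest in 96 h –dox (90.6 and 737 FPKM). Tubb3 (31.7 FPKM) and Sox11 (26.6 FPKM) made up most of the neurectoderm sum, while Sox1 was at 0.893 FPKM there and at 13.3 FPKM at the 96 h timepoint. Sparc (405 FPKM), Col4a1, Col4a2 and Lamb1 made up most of the endoderm sum, while Amn and Cubn were lower than at the 96 h timepoint and Afp was at 0.121 FPKM.

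**Figure D5:**
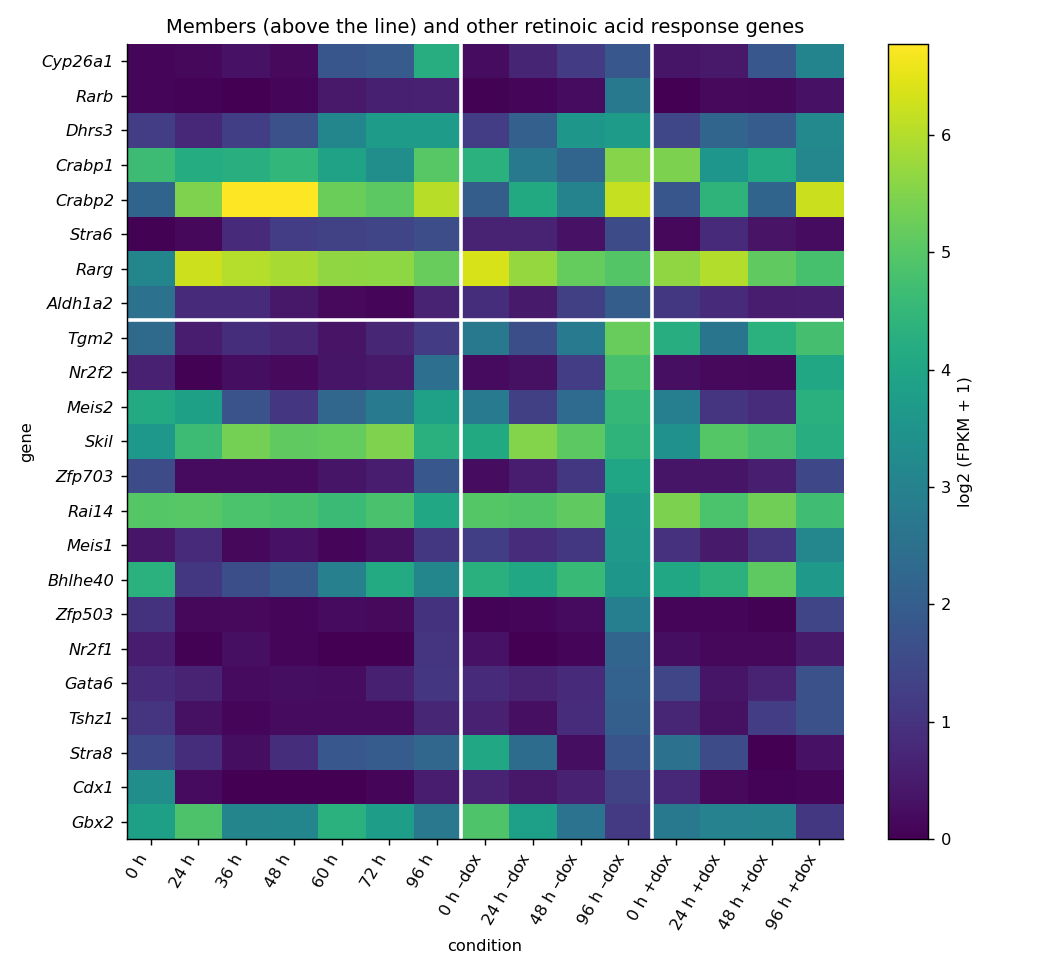
Level as log2(FPKM + 1), by colour, of the 8 genes (above the white line) and of 15 other response genes that reach 1 FPKM (below it, ordered by their 96 h –dox value), over the 15 conditions on the x axis. The white vertical lines separate the time course, –dox and +dox conditions. Most response genes are brightest in 96 h –dox (9 of 15), whereas Cyp26a1 is brightest at 96 h.

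Compared among themselves over the 15 conditions, Cyp26a1 and Dhrs3 ranked the conditions most alike of the 28 pairs, with Spearman's rho of 0.882 and Pearson's r of log2(FPKM + 1) of 0.784. Rarb had a rho of 0.879 with Dhrs3 and 0.789 with Cyp26a1 but an r of 0.584 and 0.376, and it was under 0.1 FPKM in 7 of the 15 conditions, where its order is uncertain. Crabp1 and Crabp2 shared little order (0.032), and Rarb and Rarg had the lowest rho (-0.60). These are descriptions, since the values of a condition come from the same cells and libraries. Among 7215 genes that reached 10 FPKM and changed at least 2-fold, the pattern most like Cyp26a1 was that of Dpysl2, by Pearson's r of log2(FPKM + 1) over the 15 conditions (0.936), followed by Pttg1 (0.911) and Mib1 (0.907). For Dhrs3 they were Cmtm8 (0.952), Whsc1 (0.951) and Yaf2 (0.951). For Rarg they were Eras (0.946), Rfx1 (0.887) and Myrf (0.879), of which Eras was at 0.472 FPKM at 0 h, 26.7 at 24 h and 29.6 in 0 h –dox. For Crabp2 they were Rnf41 (0.915), Thap11 (0.892) and Ankrd50 (0.887), and for Crabp1 Itm2a (0.775), Irx2 (0.758) and Scarb1 (0.755).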

How the data were processed

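Polyadenylated RNA of 15 conditions with 2 replicates each was sequenced. Per the paper's methods, the authors mapped reads to mm10 with TopHat2 2.0.14, quantified Gencode M4 transcripts (200 bp or longer) with Cufflinks 2.2.1 and let Cuffdiff combine the replicates, so the deposited table has 1 FPKM value for each gene in each condition. How libraries were normalised is not given in the sources used here. The deposited table also holds 5 columns of the authors' calls of dynamic and dox-responsive genes, which were not used. Without counts or replicate values, no test was run and the depth is unknown.

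Values were used as deposited, and ratios had no pseudocount. A change was a ratio of 2-fold or more whose upper value was at least 1 FPKM. The 8 genes and the lists were chosen with earlier results of these data known. Of the other lists, genes reaching 10 FPKM were named, at most the 4 with the largest range in each list (lowest value set to at least 0.1 FPKM), and the 3 genes most like each member that reached 10 FPKM. Genes named outside this rule (Skil, Rbp4, Adh1, Cdx1, Hox genes, Ccdc33, Top2b and others of the lists) were chosen after their values were seen. Some genes of the lists are not reported here and are not in their counts. Positions are from Gencode M21 on mm10. Alternatives were tried for the minimum, the fold, the pseudocount, the scaling and the measure of likeness. Steps used Python 3.11.15, numpy 2.4.6, pandas 2.3.3 and matplotlib 3.10.9, and were tested on simulated data.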

Additional observations from a re-analysis of the deposited data

Results flagged for a closer look

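The ratio of +dox to –dox Crabp1 values took opposite signs by the hours of differentiation before dox was added. The log2 ratio of its +dox to its –dox value was 1.15 after 0 h of differentiation and 2.19 after 48 h, and it was -2.56 after 96 h. Scaling to equal sums of FPKM took this ratio after 0 h under 2-fold. The –dox values were 19.0, 3.61 and 45.8 FPKM, and the +dox values 42.2, 16.5 and 7.79 FPKM. Beside the cells they were seeded from, +dox cells held 1.76-fold more Crabp1 RNA after 0 h. They held 1.29-fold less after 48 h and 4.03-fold less after 96 h. With 1 combined value per condition, the difference between these times was not tested.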

How the results depend on the processing

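Of 48 pairs of member and later timepoint, 29 were counted as changed against 0 h, and 17 with a minimum of 5 FPKM. Of 32 pairs of member and time, 10 were counted between +dox and –dox cells, and 6 with that minimum. Of 32 between –dox cells and the cells they were seeded from, 14 were counted, and 8 with that minimum, where fewer genes are tested. The other minimums, folds, pseudocounts and scalings kept these counts within 1.5 times. Among –dox cells against 0 h –dox, alternatives chosen after seeing the data gave 11 to 21 of 24, against 16. None of 135 log2 ratios of members changed sign. Of these, 27 moved with 0.1 FPKM added and 59 with 1 FPKM added, and scaling to equal sums or by median ratios (factors 0.982 to 1.04) moved 0, although equal sums took the Crabp1 ratio after 0 h under 2-fold and left 9 of the 32 pairs counted between +dox and –dox cells. The genes most like a member depended on the measure, since Spearman's rho kept between 0 and 2 of 3. Pearson's r over the 7 timepoints alone kept 1 of 3 for Rarg and 0 for Cyp26a1, Crabp1, Crabp2 and Dhrs3. No paired analysis was possible because the table combines the replicates, and for the same reason no replicate could be left out.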
